A study of Mus musculus with 31 samples.

Results

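The cytosolic ribosomal protein genes encode the proteins of the ribosome that translates mRNA in the cytosol. They were taken as the protein-coding genes of GENCODE M21 whose symbol is Rpl or Rps followed by a digit, together with Rplp0, Rplp1, Rplp2 and Rpsa, leaving out the Rps6k kinases, symbols with -ps and symbols ending in l. Of 57193 genes with exonic entries in the table, 21821 reached a mean of 1 TPM (a unit of transcript share, corrected for length and library size), 11279 of them protein-coding. The rule gave 81 genes, and 81 of 81 passed that minimum. They comprised 43 of the large subunit, 31 of the small subunit, 3 of the stalk, and 4 that are variants or not core proteins by name (Rpl22l1, Rpl7l1, Rps27rt and Rps19bp1). A further 11 genes with like names were left out by the rule, among them Rpl36al at a mean of 456.9 TPM and Rps27l at 236.9 TPM.

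The cells were mouse embryonic stem cells of the DTCM23/49 XY lines, carrying a conditional Dicer1 gene; Dicer cuts microRNA precursors into mature microRNAs. Cells labelled WT and cells labelled Dicer depleted both carry a treatment time of 8 days in the labels, and loss of Dicer1 was induced with 800 nM 4-hydroxytamoxifen (4-OHT). The labels do not say if WT cells received 4-OHT, so an effect of the drug and of Dicer1 loss cannot be told apart here. Each of 2 WT and 2 depleted cultures was given 200 uM 4-thiouridine (4sU), a uridine analog that marks RNA made while it is present, for 10 and for 15 minutes, and the labelled RNA was separated from the rest. The rest is called preexisting here; the titles call it total. This gave 16 libraries. The labels number the cultures as biological replicates 1 and 2. P-values therefore measure the spread between these cultures of the same lines, except those for labelling time. In bulk RNA, fewer cells of a type and less RNA per cell cannot be told apart. By its title, the series asks if microRNA-driven decay of cellular transcripts depends on their translation.

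Ribosomal proteins are made in step with one another and with ribosomal RNA, and cells that divide fast, such as embryonic stem cells, spend much of their mRNA on them. Most of their mRNAs start with a C followed by a run of pyrimidines, the terminal oligopyrimidine (TOP) start, through which mTOR signalling and LARP1 set how well they are translated and how stable they are. Their genes are short and have many processed pseudogene copies in the genome, and the introns of some hold small nucleolar RNAs (snoRNAs) that guide the modification of ribosomal RNA.

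TOP-like runs were looked for in the RefSeq promoter table (GRCm38.p6), which held 61 of the 81 genes. The motif was a C with only C or T after it, at least 6 bases in all, on the gene's own strand and touching the 20 bases on either side of an annotated start. A run was found for 41 of the 61 genes (67.2%), against 39.4% of all 27025 genes in the table. The windows below hold 15 bases on each side of the start, 5′ to 3′ on the gene's strand, with the part of the run inside the window in capitals. They are shown because they belong to genes with the lowest (Rps10, Rpl35, Rplp2, Rpl22l1) and highest (Rpl4, Rpl15, Rps6) values for the change of preexisting RNA, to the abundant Rps27, and to 2 genes without a run (Rplp0, Rps3). The 13-base run of Rpl4 begins before its window, so its first bases are not shown.
Rps10, chr17:27635230-27635259, minus strand: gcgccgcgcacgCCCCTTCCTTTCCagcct
Rpl35, chr2:39005117-39005146, minus strand: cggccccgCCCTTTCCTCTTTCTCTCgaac
Rplp2, chr7:141447636-141447665, plus strand: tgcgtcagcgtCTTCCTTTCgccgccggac
Rpl22l1, chr3:28805493-28805522, plus strand: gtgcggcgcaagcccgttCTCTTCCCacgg
Rps27, chr3:90213634-90213663, minus strand: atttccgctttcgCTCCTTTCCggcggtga
Rps6, chr4:86857353-86857382, minus strand: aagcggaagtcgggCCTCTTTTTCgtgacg
Rpl15, chr14:18270972-18271001, minus strand: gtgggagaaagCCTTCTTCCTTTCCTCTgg
Rpl4, chr9:64173372-64173401, plus strand: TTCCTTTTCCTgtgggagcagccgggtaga
Rplp0, chr5:115559452-115559481, plus strand: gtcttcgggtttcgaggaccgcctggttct
Rps3, chr7:99483695-99483724, minus strand: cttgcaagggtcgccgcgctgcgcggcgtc
A match describes letters near an annotated start, not a measured 5′ end.

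The 81 genes were among the most abundant mRNAs of these cells. Their mean level over the 16 libraries had a median of 485.44 TPM, against 10.24 TPM for the 11279 protein-coding genes. Levels differed widely within the set, from 5.07 TPM for Rps19bp1, which encodes a nucleolar protein that binds the ribosomal protein S19, to 3553 TPM for Rpl31, a protein near the exit of the peptide tunnel. Above 1000 TPM stood 11 genes, with Rpl41, which encodes one of the smallest proteins of the ribosome, at 2276 TPM and Rpl10, a late-joining protein of the large subunit, at 1996 TPM. The main transcripts were short, with a median of 648 bases against 1825 for coding genes.

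Read assignment limits how far 1 gene can be read on its own. By sequence (at least 90% identity over 80% of the pseudogene), 819 annotated pseudogenes matched 78 of the 81 genes, and the signal assigned to these copies was 1.49 to 1.60 times that of the genes themselves in every library. The pseudogenes' share of a gene's joint signal had a median of 56.0% and reached 90.7% for Rpsa, the laminin receptor protein of the small subunit. Near-identical copies can share reads, so the levels of single genes are uncertain, and 6 genes with a share below 1% (among them Rplp2, Rps19bp1, Rps27, Rps3 and Rps9) are touched least by pseudogenes. For Rps27 that share leaves out Rps27rt, which is annotated as coding.

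Within a culture, most of the 81 genes moved the same way between its 10 and 15 minute libraries, also in preexisting RNA. In WT culture 1, their summed preexisting level was 75457 TPM at 10 minutes and 49417 TPM at 15 minutes, and 1 of 81 genes was higher at 15 minutes. WT culture 2 went the other way, from 34132 to 54168 TPM, with 81 of 81 higher at 15 minutes. Depleted culture 1 had 26953 and 45459 TPM, with 81 of 81 higher at 15 minutes, and depleted culture 2 had 32483 and 30621 TPM, with 22 of 81 higher. The lowest WT library thus lay below the highest depleted library. In labelled RNA, the sums were 55631 and 75084 TPM in WT culture 1, 55693 and 52812 TPM in WT culture 2, 32353 and 49928 TPM in depleted culture 1, and 32888 and 52235 TPM in depleted culture 2. At 10 minutes both depleted labelled libraries were far below both WT ones, and at 15 minutes they lay just under the lower of them. The intronic share of a library's signal also differed between the genotypes, at 15.5 to 18.4% in WT and 18.5 to 23.3% in depleted labelled libraries, and its part in these levels was not tested.

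**Figure D1:**
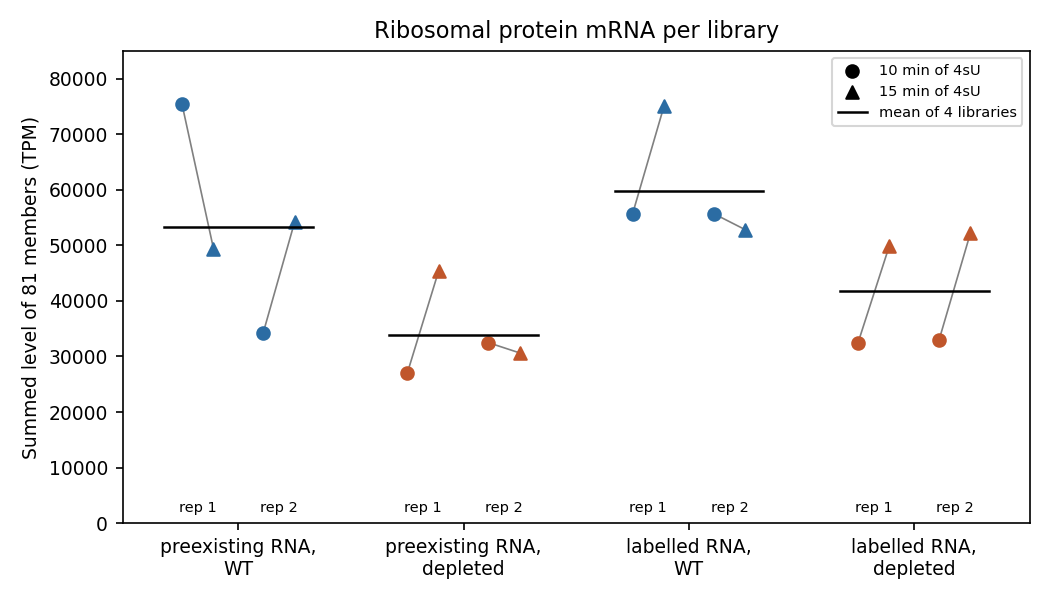
Summed level of the 81 ribosomal protein genes in each of the 16 libraries (y axis, TPM), by fraction and genotype; circles are 10 minute and triangles 15 minute libraries, and lines are means of 4 libraries. Preexisting WT libraries span 34132 to 75457 TPM and depleted ones 26953 to 45459 TPM, so the genotypes overlap in single libraries.

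Averaged over its pair of libraries, each depleted culture had less preexisting ribosomal protein mRNA than each WT culture. The sum was 62437 and 44150 TPM in the WT cultures and 36206 and 31552 TPM in the depleted ones, or 53294 ± 12931 against 33879 ± 3290.6 TPM (SD, n = 2). The log2 change of preexisting RNA, depleted against WT, was negative for 81 of 81 genes, where 45.9% of all 21821 features were negative. Its median was -0.70, against 0.03 over all features and 0.04 over coding genes, and values ran from -1.37 for Rplp1 to -0.10 for Rpl4. Both depleted cultures lay below both WT cultures for 71 of 81 genes, against 19.3% of all features. From single labelling times, both depleted libraries lay below both WT ones for 46 of 81 genes at 10 minutes (background 15.9%) and for 57 of 81 at 15 minutes (background 18.4%). No gene of the set passed limma's adjusted p of 0.05 (background 0.147% lower); at an unadjusted p under 0.05, 62 of 81 were lower, against 8.35% of all features. The lowest adjusted p in the set was 0.0858, for Rpl22l1. WT culture 1 exceeded WT culture 2 for 80 of 81 genes: without culture 1 the median was -0.40 with 77 of 81 negative, and without culture 2 it was -0.99. The unadjusted count of 62 was 19 without WT culture 1, 9 without depleted culture 2, 36 without depleted culture 1 and 74 without WT culture 2, each with 1 culture assumed to vary like the other groups.

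The stalk proteins stood at the low end. The stalk is the flexible arm of the large subunit that recruits elongation factors, with P0 (Rplp0) as its base and P1 and P2 (Rplp1, Rplp2) bound to it in pairs. Rplp1 was at 99.9 and 46.9 TPM in the WT cultures and at 37.3 and 16.2 TPM in the depleted ones, a log2 change of -1.37 (SE 0.44, limma adjusted p = 0.177). Rplp2 was at 739 and 348 TPM in WT and at 341 and 163 TPM in depleted cultures (-1.07). For Rplp2, the lower WT culture was close to the higher depleted one. Rplp0, at 401 and 245 TPM in WT and 197 and 119.5 TPM in depleted cultures, had a log2 change of -1.03. The culture means of the genotypes overlapped for none of the 3 genes, where 19.3% of all features had both depleted cultures below both WT cultures. Single libraries did overlap: depleted culture 1 at 15 minutes was above WT culture 2 at 10 minutes. The values were 57.0 and 20.8 TPM for Rplp1, 464 and 210 TPM for Rplp2, and 289 and 133 TPM for Rplp0. The median of the 3 was -1.07 in preexisting and -0.93 in labelled RNA, against -0.69 and -0.56 for the 43 genes of the large subunit.

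Among the 43 genes of the large subunit, 43 of 43 had negative values and 35 were lower at an unadjusted p under 0.05. Rpl8, a protein at the heart of the large subunit, was at 141 and 85.2 TPM in WT and at 69.5 and 35.4 TPM in depleted cultures (-1.10, SE 0.35). Rpl35, which lines the exit of the peptide tunnel, was at 177 and 99.4 TPM in WT and 72.2 and 52.8 TPM in depleted cultures (-1.09, SE 0.29). The cultures of the genotypes did not overlap for either gene. Rpl5 and Rpl11 form a particle with 5S ribosomal RNA and, when not in ribosomes, restrain the p53 regulator MDM2. Rpl5 was at 1405 and 1222 TPM in WT and at 889 and 903 TPM in depleted cultures (-0.54, SE 0.14, limma adjusted p = 0.121). Rpl11 was at 1445 and 1085 TPM in WT and at 850.2 and 587 TPM in depleted cultures (-0.84, SE 0.20, limma adjusted p = 0.11). Rpl10 was at 3253 and 2746 TPM in WT and at 2140.2 and 1460.4 TPM in depleted cultures (-0.76), without overlap of these means. Single libraries did overlap for Rpl10, Rpl8 and Rpl35, where depleted culture 1 at 15 minutes was above WT culture 2 at 10 minutes. The values were 2746.5 and 2058 TPM for Rpl10, 99.3 and 45.0 TPM for Rpl8, and 106.6 and 60.5 TPM for Rpl35. The highest value in the set belonged to Rpl4, part of the wall of the peptide tunnel, at 674 and 742 TPM in WT and at 629.9 and 686 TPM in depleted cultures (-0.10, SE 0.14), where the genotypes overlapped. The most abundant gene, Rpl31, also had a small difference, from 3896 and 3688 TPM to 2615 and 3404 TPM (-0.34, SE 0.14).

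For the small subunit, 31 of 31 genes had negative values with a median of -0.70, and 22 were lower at an unadjusted p under 0.05. Rps10, a protein of the subunit's head, was at 879.6 and 561 TPM in WT and at 412 and 185 TPM in depleted cultures (-1.30, SE 0.36, limma adjusted p = 0.141). Rps13 was at 152 and 67.6 TPM in WT and at 53.1 and 38.8 TPM in depleted cultures (-1.15, SE 0.36). In both genes, the mean of the higher depleted culture was below that of the lower WT culture. Single libraries did overlap, as depleted culture 1 at 15 minutes was above WT culture 2 at 10 minutes. The values were 580.5 and 283 TPM for Rps10 and 80.7 and 44.4 TPM for Rps13. Rps27, a zinc finger protein with a pseudogene share of 0.0103%, was at 1724 and 1163 TPM in WT and at 898 and 703 TPM in depleted cultures (-0.82). Rps6, the protein phosphorylated by S6 kinase, differed less, with 1497 and 1352 TPM in WT and 1031 and 1165 TPM in depleted cultures (-0.38, SE 0.13). Rps19, the protein most often mutated in Diamond-Blackfan anaemia, was at 539 and 403 TPM in WT and at 351 and 238 TPM in depleted cultures (-0.70). Rps21 was a small-subunit gene whose cultures overlapped, at 163 and 98.8 TPM in WT and 105 and 108 TPM in depleted cultures (-0.24).

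The 4 variant or non-core genes differed from one another. Rpl22l1, the paralog of Rpl22, was at 369 and 223 TPM in WT and at 134 and 153 TPM in depleted cultures (-1.05, SE 0.22). Rpl22 itself was at 1016 and 760.5 TPM in WT and at 591 and 467 TPM in depleted cultures (-0.73, SE 0.18). Both paralogs thus had lower culture means in the depleted cells without overlap of the means. Single libraries did overlap. Rpl22 was at 746 TPM in depleted culture 1 at 15 minutes and at 557 TPM in WT culture 2 at 10 minutes. Rpl22l1 was at 230.5 TPM in depleted culture 2 and at 202 TPM in WT culture 2, both at 10 minutes. Rps27rt, by name a retrogene of Rps27, had -0.81, close to the -0.82 of Rps27, with which it may share reads. Rpl7l1, a relative of Rpl7 found on precursors of the large subunit, was low in level, at 10.1 and 6.21 TPM in WT and 5.85 and 5.19 TPM in depleted cultures (-0.46), against -0.82 for Rpl7. Rps19bp1 was at 6.0 and 3.84 TPM in WT and 6.52 and 3.36 TPM in depleted cultures (-0.14), so the genotypes overlapped.

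**Figure D2:**
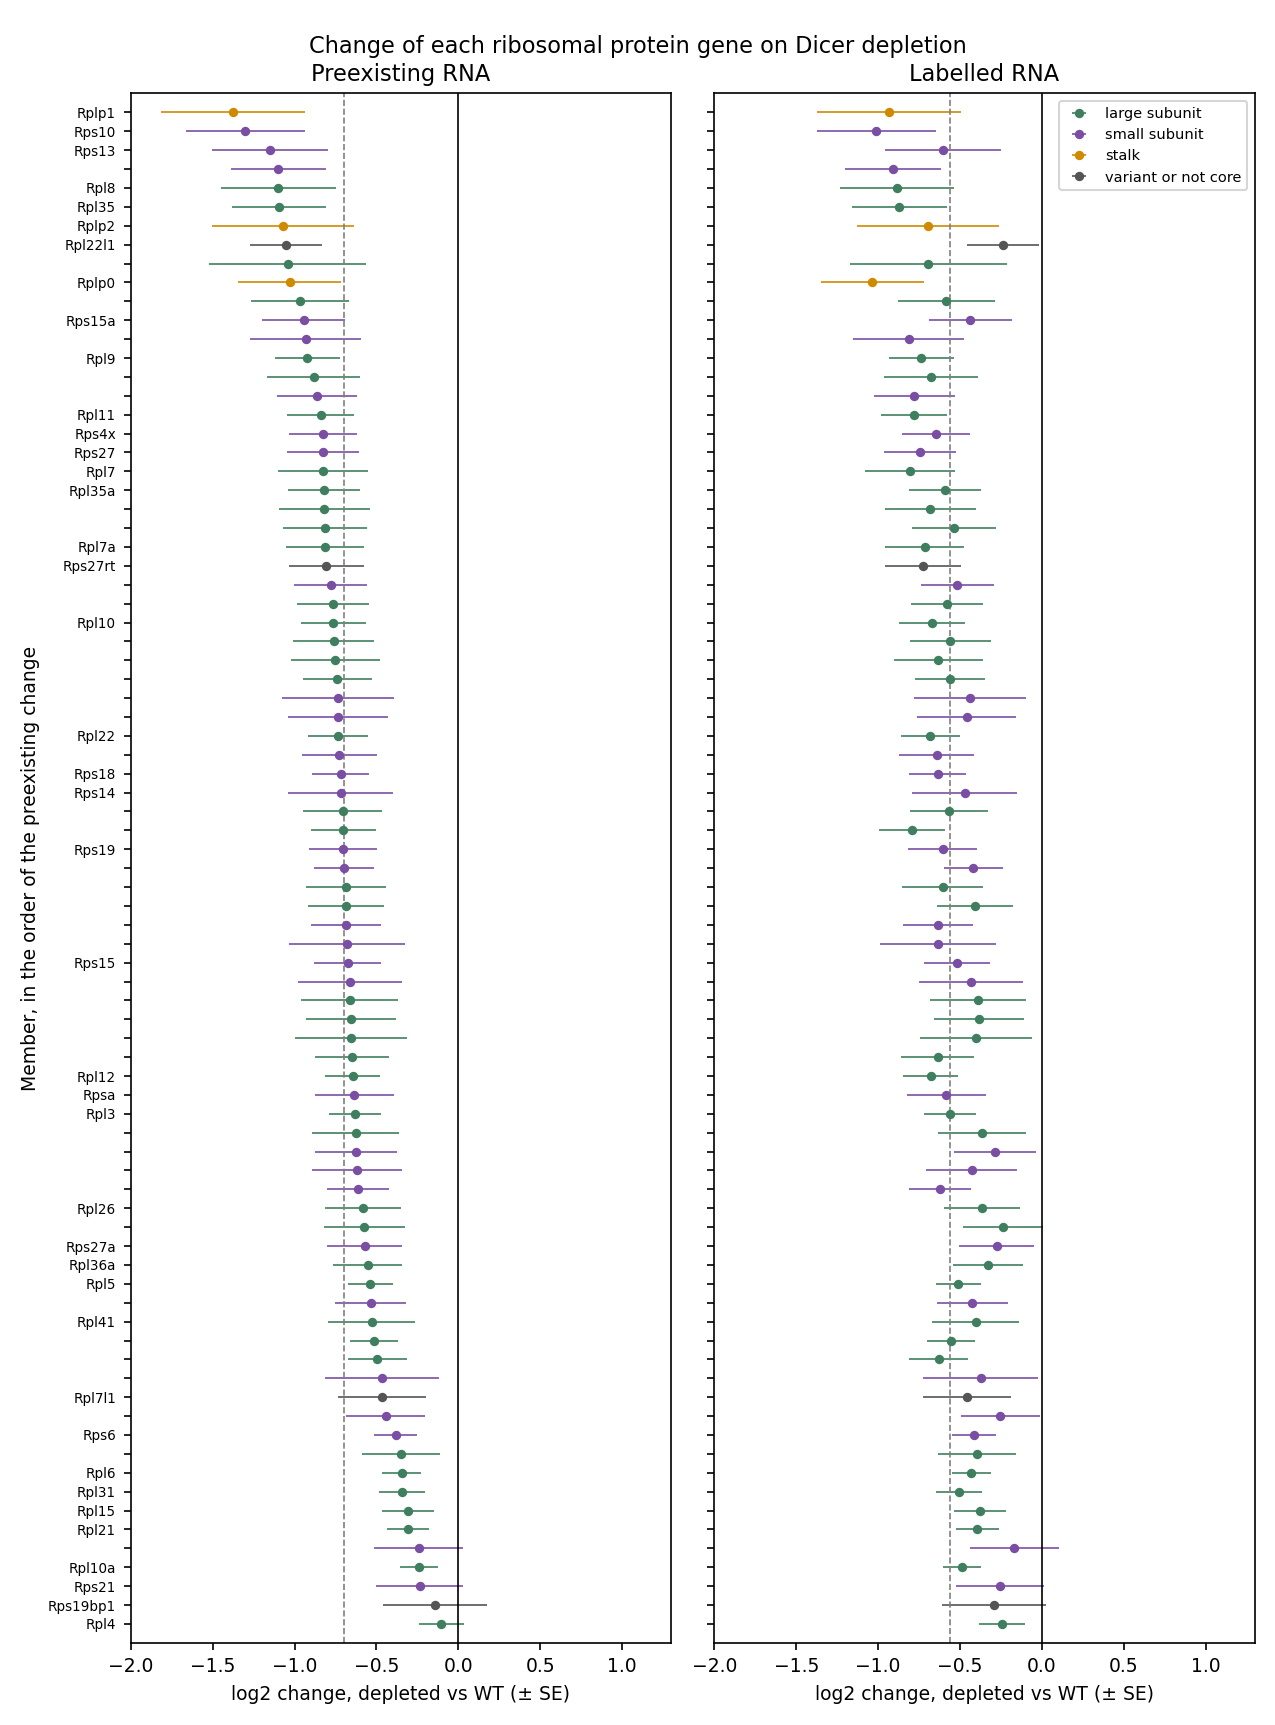
Log2 change of each of the 81 genes, depleted against WT (x axis; bars are ± SE), in preexisting and labelled RNA, ordered by the preexisting change, with part of the genes named on the y axis; dashed lines mark the medians, -0.70 and -0.56. All points lie left of 0 in both panels, from Rplp1 at -1.37 to Rpl4 at -0.10 in preexisting RNA.

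Labelled RNA, made during 10 or 15 minutes of 4sU, was lower in depleted cultures as well. The sum was 65357 and 54253 TPM in the WT cultures and 41140 and 42561 TPM in the depleted ones, or 59805 ± 7852.4 against 41851 ± 1004.8 TPM (SD, n = 2). The log2 change was negative for 81 of 81 genes (44.5% of all features), with a median of -0.56 against 0.06 over all features. Both depleted cultures were below both WT cultures for 75 of 81 genes, where the background was 20.2%, and 70 of 81 genes showed this in both fractions. Limma called 0 of 81 after adjustment (background 0.0367% lower), and 44 of 81 were lower at an unadjusted p under 0.05 (background 5.09%). The labelling times differed: both depleted 10 minute libraries lay below both WT ones for 81 of 81 genes (background 26.1%), and at 15 minutes for 27 of 81 (background 12.8%). The median was -0.80 from the 10 minute libraries alone and -0.29 from the 15 minute libraries alone. The unadjusted count of 44 was 24 without WT culture 1, 19 without depleted culture 2, 8 without depleted culture 1 and 57 without WT culture 2.

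Stalk and small-subunit genes were again at the low end in labelled RNA. Rplp0 was at 350.0 and 274 TPM in labelled WT RNA and at 148 and 181 TPM in depleted RNA, the lowest value of the set (-1.03, SE 0.31, limma adjusted p = 0.252). Rps10 was at 593 and 598 TPM in WT and at 282 and 373 TPM in depleted cultures (-1.01, SE 0.36). The WT values of Rps10 were nearly equal here, unlike in preexisting RNA. Rpl5 was at 1540.4 and 1602 TPM in WT and at 1009 and 1221 TPM in depleted cultures (-0.51, SE 0.14), and Rpl11 at 1689 and 1523 TPM against 947 and 1011 TPM (-0.78, SE 0.20). Rpl10a, a surface protein of the large subunit, had the lowest adjusted p of the set in labelled RNA, 0.211 by limma, with 1651 and 1558 TPM in WT and 1171 and 1146 TPM in depleted cultures (-0.49, SE 0.12).

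**Figure D3:**
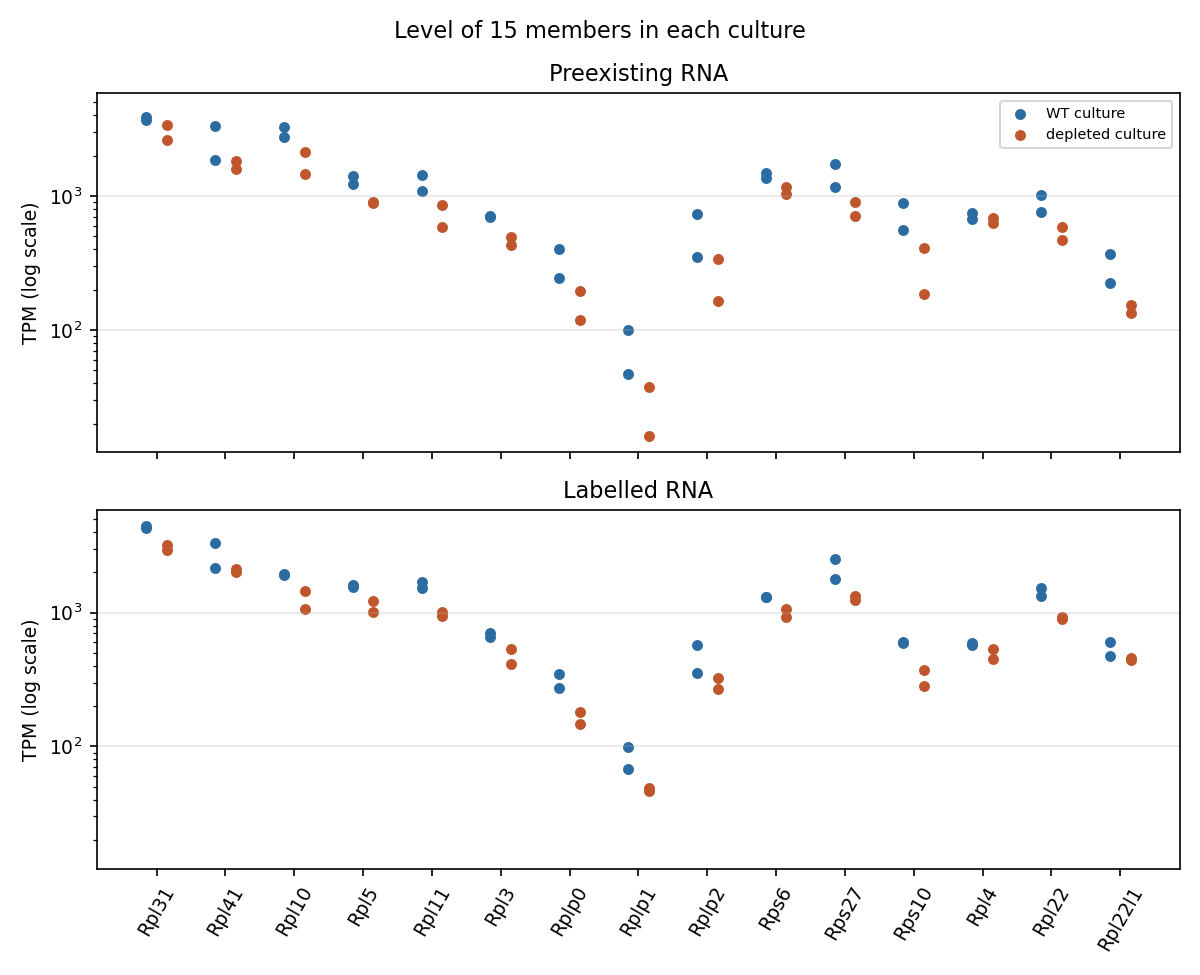
Level of 15 ribosomal protein genes in each culture (TPM, log axis), the mean of its 10 and 15 minute libraries, in preexisting (top) and labelled RNA (bottom); 2 points per genotype. Rpl22l1 is at 134 and 153 TPM in depleted preexisting RNA but at 458 and 446 TPM in depleted labelled RNA, while Rpl4 overlaps between the genotypes in preexisting RNA and has a labelled log2 change of -0.24.

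The change in preexisting RNA was set against the change in labelled RNA for each gene by an interaction term, which compares fractions and is not a decay rate. Of the 81 genes, 65 had a negative value (52.2% of all features), with a median of -0.12 against -0.02 over all features. Limma called 0 of 81 (background 0.00458% lower and 0.0% higher), and 1 of 81 had an unadjusted p under 0.05 (background 1.90% lower). That gene was Rpl22l1, at -0.81 (SE 0.31, unadjusted p = 0.0315, limma adjusted p = 1.00). In WT, Rpl22l1 was at 599 and 474 TPM in labelled RNA, and in depleted cultures at 458 and 446 TPM (-0.24), so its labelled level differed little while its preexisting level differed by -1.05. The 2 depleted preexisting libraries of culture 2 gave 230.5 TPM at 10 minutes and 76.2 TPM at 15 minutes, a wide spread behind a mean of 153 TPM. The sign of the set's median rests on single cultures: it was 0.038 without WT culture 1, 0.035 without depleted culture 2, -0.27 without depleted culture 1 and -0.32 without WT culture 2.

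In WT cells, labelled and preexisting levels of the set were close, with differences between genes. The log2 difference, labelled minus preexisting, had a median of 0.28 over the 81 genes, against 0.24 over all 21821 features and -0.02 over coding genes. Limma called 8 of 81 genes higher in labelled RNA (background 26.1%) and 3 lower (background 7.98%). With culture as a block, since both fractions come from 1 culture, the counts were 20 and 2. Scaled to protein-coding signal, 29 were higher and 0 lower, and centred on each library's median, 0 were higher and 13 lower, so the direction for the set depends on the scaling. The same settings moved the median of all features from 0.24 to 0.52 and -0.25. The shares of all features called with the block or these scalings are not reported here, so the counts cannot be set against a background. Leaving out either WT culture gave 0 calls in the set, and leaving out either depleted culture gave 3.

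The 8 genes higher in labelled RNA of WT cells were Rpl22l1, Rps27a, Rpl12, Rpl26, Rpl22, Rpl35a, Rpl36a and Rpl21. Rpl22l1 had 599 and 474 TPM in labelled and 369 and 223 TPM in preexisting RNA (0.95, SE 0.22, limma adjusted p = 0.0129). Rps27a, whose protein is made as a fusion with ubiquitin, had 1343 and 974 TPM in labelled and 819.9 and 504 TPM in preexisting RNA (0.85, SE 0.23, limma adjusted p = 0.0234). Rpl12, a protein at the base of the stalk, had 914 and 887 TPM against 620.0 and 474 TPM (0.77, SE 0.17, limma adjusted p = 0.00991). In each of these, both labelled values were above both preexisting values. The share of all features separated in this way was not computed, and these genes were picked by this same comparison. Among the 3 lower genes were Rps15 (-0.68, limma adjusted p = 0.0337) and Rpl10 (-0.61, limma adjusted p = 0.0485). Rps15 had 312 and 247 TPM in labelled and 531 and 382 TPM in preexisting RNA.

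In depleted cells, 21 of 81 genes were higher in labelled than in preexisting RNA (background 30.1%) and 3 were lower (background 11.0%), with a median of 0.40 against 0.28 over all features. With culture as a block the counts were 32 and 4, scaled to protein-coding signal 46 and 0, and centred 1 and 11. The shares of all features called in these settings are not reported here, so these counts have no background beside them. Leaving out either depleted culture left 1 call in the set, that of Rpl22l1. Rpl22l1 had the largest difference, with 458 and 446 TPM in labelled and 134 and 153 TPM in preexisting RNA (1.76, SE 0.22, limma adjusted p = 0.000939). That call held in 14 of 15 alternative settings; from 10 minute libraries alone it was 1.56 with an adjusted p of 0.0647, and over all settings limma's adjusted p ran from 0.000355 to 0.0647. Rps27a followed at 1.15 (SE 0.23, limma adjusted p = 0.00579, called in 11 of 15 settings), with 959 and 948 TPM in labelled and 421 and 436 TPM in preexisting RNA. Some of these settings, such as leaving out a WT culture, cannot change the estimate in depleted cells and alter only its error. Among the lower genes were Rpl10a (-0.54) and Rpl4 (-0.42). The rank correlation of the labelled minus preexisting difference with transcript length over the 81 genes was -0.38 in WT and -0.48 in depleted cells (Spearman's rho), against -0.10 and -0.14 over 11279 coding genes; all genes share the same libraries.

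**Figure D4:**
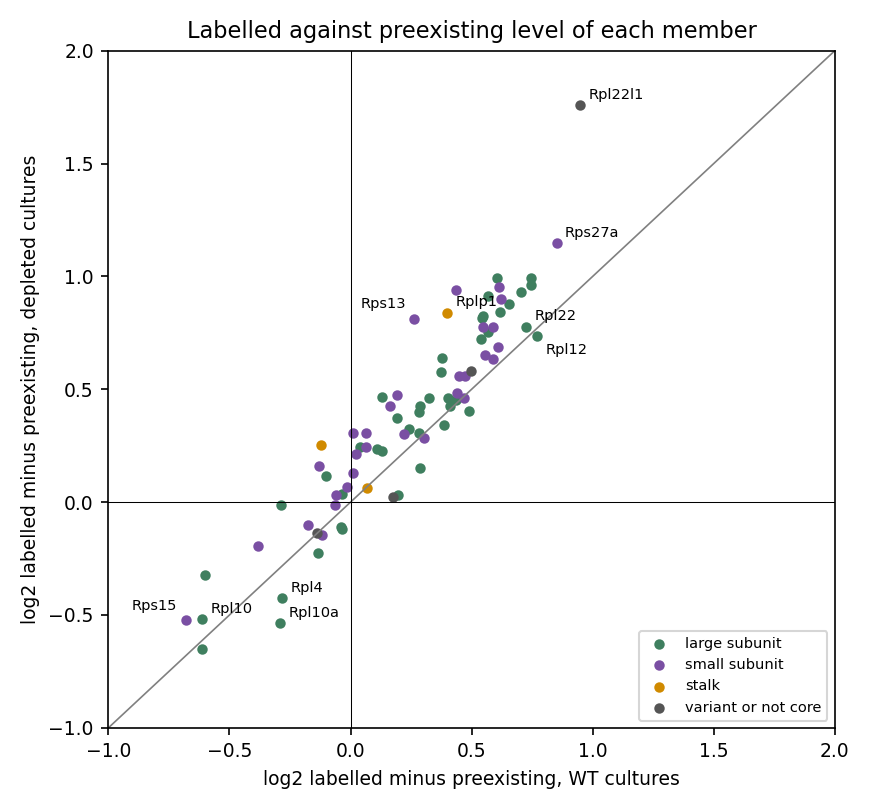
Log2 level in labelled minus preexisting RNA for each of the 81 genes, in WT (x axis) and depleted cultures (y axis), coloured by subunit; the grey line marks equal values. Rpl22l1 stands apart at 0.95 and 1.76, and Rpl10a lies at -0.29 and -0.54.

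The labelling time was compared within labelled RNA over both genotypes, with 4 libraries at each time. Levels at 15 minutes were above those at 10 minutes for 80 of 81 genes (51.7% of all features), with a median log2 difference of 0.48 against 0.01 over all features. Limma called 0 of 81 (background 0.00458% in each direction), and 45 of 81 were higher at an unadjusted p under 0.05 (background 5.62%). This fit took each labelled library as separate, with genotype as a term, although both times come from the same cultures. Its p-values thus do not measure the spread between cultures. Rplp1 had the largest value (0.94), with 68.1 and 129.8 TPM at 10 and 15 minutes in WT culture 1, 69.3 and 66.6 TPM in WT culture 2, 18.9 and 78.2 TPM in depleted culture 1, and 32.2 and 60.6 TPM in depleted culture 2. The exception was Rpl22l1 (-0.13), at 605.9 and 592.8 TPM, 494 and 454 TPM, 492 and 425 TPM, and 467 and 424 TPM in the same order, lower at 15 minutes in 4 of 4 cultures. In WT culture 2, only 15 of 81 genes were higher at 15 minutes, against 72 in WT culture 1, 78 in depleted culture 1 and 80 in depleted culture 2.

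Introns are removed soon after they are transcribed, so intronic signal comes mostly from young RNA. It can also hold RNAs made inside introns, such as snoRNAs. Intronic signal was tested for 76 of the 81 genes. In labelled RNA of WT cells, 76 of 76 genes had more intronic signal than in preexisting RNA (98.0% of all 12472 genes tested were positive, and limma called 94.1% higher), with a median of 2.43 against 1.63 over all genes. Depleted against WT, labelled intronic signal was negative for 62 of 76 genes where 17.0% of all genes were negative, with a median of -0.23 against 0.28. The median was -0.028 without depleted culture 1 and -0.43 without depleted culture 2. Limma called 0 of 76 genes lower (background 0.0481%) and 0 higher (background 4.19%); 1 was lower at an unadjusted p under 0.05 (background 0.882%). Rps10 had 16.2 and 19.2 TPM of labelled intronic signal in WT and 9.49 and 10.6 TPM in depleted cultures (-0.78, SE 0.53). Rpl7a, a large-subunit gene with 3 snoRNAs in its introns, had 41.5 and 60.3 TPM in WT and 15.96 and 35.3 TPM in depleted cultures (-1.06, SE 0.69). The entries of these 3 snoRNAs themselves were at 0 TPM. The culture means of the genotypes overlapped for neither Rps10 nor Rpl7a. The share of all intronic features without such overlap was not computed. In single libraries Rpl7a did overlap, with 47.1 TPM in depleted culture 2 at 15 minutes and 37.7 TPM in WT culture 1 at 10 minutes. Rpl5 had 178 and 138 TPM in WT and 161 and 171 TPM in depleted cultures (0.07), and Rpl4 had the highest value (0.29).

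Preexisting intronic signal of the set was low and showed no common direction: 35 of 76 genes were negative (20.1% of all genes) and 41 positive (79.8%), with a median of 0.10 against 0.21. Without WT culture 2 the median was -0.18, without depleted culture 1 -0.23, without depleted culture 2 0.29 and without WT culture 1 0.35. Limma called 0 of 76 (background 0.0160% higher and 0.0% lower), with 3 lower and 5 higher at an unadjusted p under 0.05 (background 1.32% and 19.8%). Rpl5 had the highest value, 14.2 and 16.8 TPM in WT and 52.7 and 33.5 TPM in depleted cultures (1.21, SE 0.25, limma adjusted p = 0.0867). The depleted means rested on the 10 minute libraries, at 84.7 and 54.5 TPM, against 20.6 and 12.5 TPM at 15 minutes; the WT libraries were at 16.3 and 27.0 TPM at 10 minutes and at 12.0 and 6.66 TPM at 15 minutes. The genotypes did not overlap at either time, but the depleted value of 12.5 TPM lay below both WT 10 minute values. How many of all intronic features were separated in this way was not computed, and Rpl5 was picked for its highest value. Rpl5 holds 3 snoRNAs in its introns. In preexisting RNA, the entry of Gm26387 had 6.84 and 7.85 TPM in WT and 6.24 and 15.5 TPM in depleted cultures. Gm22270 had 6.29 and 6.16 TPM in WT and 5.31 and 11.6 TPM in depleted cultures, and Snord21 was at 0 TPM. Their part in the intronic signal was not tested. Rps14, a small-subunit gene, had 5.25 and 2.40 TPM in WT and 13.4 and 5.94 TPM in depleted cultures (1.10, SE 0.42). The log2 change of their preexisting exonic RNA was -0.54 for Rpl5 and -0.72 for Rps14, opposite in sign to that of their introns.

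**Figure D5:**
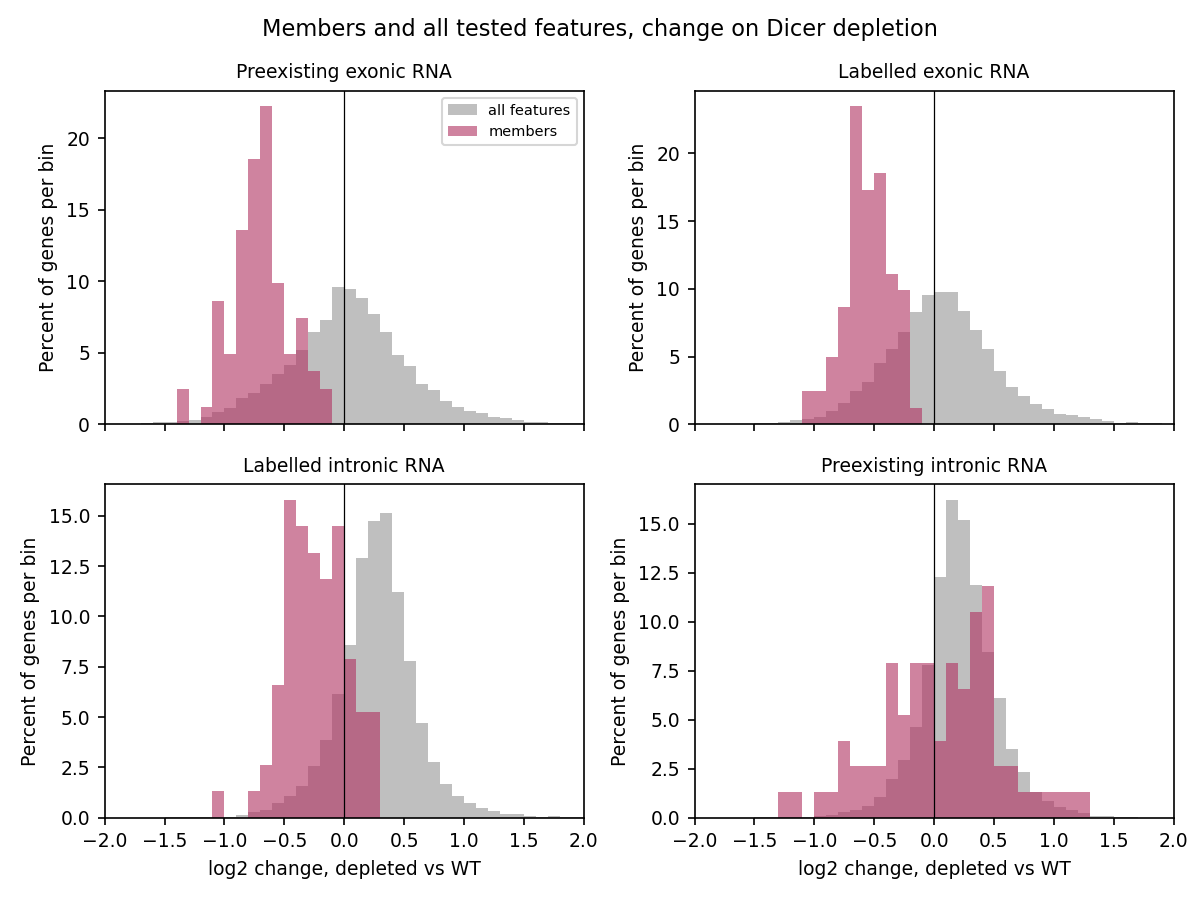
Distribution of log2 changes, depleted against WT (x axis), for the ribosomal protein genes and for all tested features (y axis, percent of genes per bin of 0.1), in exonic (top) and intronic signal (bottom). The set lies left of all features in preexisting exonic (medians -0.70 and 0.03), labelled exonic (-0.56 and 0.06) and labelled intronic signal (-0.23 and 0.28), and close to them in preexisting intronic signal (0.10 and 0.21).

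Medians were close between groups of the set made by features that the rule did not use. The 41 genes with a TOP-like run had a median preexisting change of -0.71 and the 20 without a run -0.70; in labelled RNA the medians were -0.56 and -0.61. The 30 genes that hold a total of 58 snoRNAs in their introns had a median of -0.66, and the 51 others -0.72. Genes with a pseudogene share of 50% or less (29 genes) had a median of -0.72, and those above (52 genes) -0.68. The 6 genes with a share below 1% had a median of -0.84, and 682 tested pseudogene copies had a median of -0.61 with 642 negative. Coding transcripts held the whole signal of 29 genes, and their median was -0.68. The rank correlation of the preexisting change with transcript length was 0.20 over the 81 genes (Spearman's rho) and 0.20 over 11279 coding genes, with all genes measured in the same libraries.

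Other genes of ribosome production and of the TOP class were read in the same fit. The 3 ribosomal proteins outside the rule, among them Fau and Rack1, were 3 of 3 negative in preexisting RNA, with a median of -0.69. Rack1, a scaffold protein on the small subunit, was at 1058 and 640.9 TPM in WT and at 573 and 453 TPM in depleted cultures (-0.69). Of 17 other mRNAs known for a TOP start, 14 were negative and 0 were called, with a median of -0.26, between the set and all features. Eef1d, an elongation factor subunit, was at 363 and 174 TPM in WT and at 149 and 94.6 TPM in depleted cultures (-1.06). Eef1a1, the main elongation factor, was at 5140.0 and 6391 TPM in WT and at 6464 and 6983 TPM in depleted cultures (0.23). Vim, which encodes an intermediate filament protein, was at 68.3 and 78.7 TPM in WT and at 104 and 163 TPM in depleted cultures (0.82).

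Among 25 ribosome assembly and nucleolar factors, 20 were negative in preexisting RNA and 0 were called, with a median of -0.19. Nhp2, a protein of the snoRNA particles that convert uridine to pseudouridine, was at 64.6 and 29.1 TPM in WT and at 22.6 and 6.90 TPM in depleted cultures (-1.74). Single libraries of Nhp2 overlapped, with 38.8 TPM in depleted culture 1 at 15 minutes and 10.4 TPM in WT culture 2 at 10 minutes. Nop58, also on this list, went the other way. Its preexisting libraries were at 1083.5, 1037, 962 and 955 TPM in WT and at 1385, 1024, 1478 and 1495 TPM in depleted cultures. The 14 genes of the RNA polymerase I machinery had 7 negative and 0 called, with a median of -0.0071. The 19 mTOR pathway genes and TOP mRNA regulators had 9 negative and 0 called, with a median of 0.02. Among the 9 negative genes, the translation repressor Eif4ebp1 was at 34.9 and 23.4 TPM in WT and at 19.9 and 16.6 TPM in depleted cultures (-0.62). Larp1, also negative, had -0.31. The genes of this list with positive values are not named here, so these examples do not stand for the list. The 6 MYC factors had 3 negative and 0 called, with a median of -0.14. The 78 mitochondrial ribosomal protein genes, which build the separate ribosome of mitochondria, had 64 negative values (45.9% of all features) with a median of -0.39, and 1 was called lower (background 0.147%): Mrpl18, at 98.5 and 99.2 TPM in WT and 47.8 and 43.9 TPM in depleted cultures (-1.18, limma adjusted p = 0.0426). In labelled RNA 62 of the 78 were negative (44.5% of all features) and 0 were called.

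Dicer1 was at 15.5 and 17.6 TPM in preexisting RNA of WT cells and at 2.22 and 3.16 TPM in depleted cells (-2.29, limma adjusted p = 0.0347), lower in the cultures labelled depleted. Over all 21821 features, 32 were lower and 109 higher in preexisting RNA and 8 lower and 20 higher in labelled RNA. The summed level of 10 embryonic stem cell markers ranged from 1026 to 1934 TPM over the 16 libraries, with a median change of 0.03 and 0 called. Of the lists for other cell types, 0 of 5 trophoblast and 0 of 3 mesoderm markers reached 1 TPM, as did 1 of 8 fibroblast, 3 of 4 neural and 3 of 8 primitive endoderm markers. The primitive endoderm sum ranged from 184 to 884 TPM, mostly Sparc, which was at 412 and 378 TPM in WT and at 794 and 746 TPM in depleted cultures (0.96, limma adjusted p = 0.0426). The other 2 did not follow it: Lama1 had a log2 change of -0.15 in preexisting RNA, and Dab2 was at 5.76 and 4.17 TPM in WT and at 11.1 and 3.43 TPM in depleted cultures. The part of these markers in the ribosomal protein levels was not tested.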

How the data were processed

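The deposited 4sU table gives, per exonic and intronic entry, a signal that the authors named TPM; each of its 16 columns sums to 9999997 to 10000003, so values were divided by 10. Per the labels' protocols, STAR 2.5.0 filtered out reads of ribosomal RNA, and RSEM quantified the remaining reads over exonic and intronic sequences (mm10), which divides reads among near-identical copies. Without a known depth, counting error could not be computed. Of 121429 exonic entries, 110366 matched GENCODE M21 and were summed per gene.

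For each culture, both labelling times were averaged as log2(TPM + 1), the scale of all changes given, which understates those of low genes. The test of labelling time instead used the single labelled libraries. Culture levels in TPM are plain means. Features with a mean of at least 1 TPM (21821 exonic, 12472 intronic) were tested with limma 3.58.1 (trend; R 4.3.3) over all groups, two-sided, adjusted by Benjamini and Hochberg over all features with a threshold of 0.05. The script was checked on simulated data. Labelled and preexisting RNA of a number come from 1 culture; the correlation of their deviations was 0.40 in WT and 0.05 in depleted cells, and the fit with culture as a block is given beside those counts. Pseudogene copies were matched with blastn 2.17.0.

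Genes were named by a rule: per comparison the 12 lowest and 12 highest changes, the 5 most abundant, and a list of genes with known roles; Rpl26, Rpl35a, Rpl36a, Rpl21 and the genes listed with a pseudogene share below 1% are named to complete a count. Genes and lists were chosen with earlier results of these data known. Alternatives were other pseudocounts, filters, scalings, labelling times, blocks and left-out cultures, and, chosen after seeing the data, only the coding transcripts of the genes. Some genes that these rules name are not reported here.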

Additional observations from a re-analysis of the deposited data

How the results depend on the processing

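Of 220 alternative values for the main results, 190 were scored as the same. A count of called genes was so scored if it was equal, also where both were 0, or of like size. A median was so scored if it kept its sign and moved less than the spread between cultures. Of 1262 values for named genes, 1132 kept their sign and their side of the threshold. The depleted against WT results for exonic RNA gave 0 called genes and a negative median in each setting run. Preexisting medians ran from -0.99 to -0.40 and labelled ones from -0.68 to -0.41 over left-out cultures; the labelled median was -0.80 from 10 minute and -0.29 from 15 minute libraries alone. The replicate number as a block, which WT and depleted cultures share only as a number (correlation of deviations 0.22 in preexisting and 0.16 in labelled RNA), gave 70 and 56 genes at an unadjusted p under 0.05 in place of 62 and 44, and 0 called. The ratio median ran from -0.32 to 0.038 over left-out cultures.

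Counts for labelled against preexisting RNA depended most on the setting. Shares of all features called are not reported for these settings, so the counts describe the set without a background. In WT (11 called), they were 0 from 10 minute and 4 from 15 minute libraries alone, 4 with no filter, 2 from the groups compared alone, 22 with the replicate block, 29 scaled to protein-coding signal and 0 to 3 over left-out cultures, with a median of -0.20 when centred. In depleted cells (24 called), they were 1 from 10 minute and 9 from 15 minute libraries alone, 12 centred, 10 with no filter, 46 scaled to protein-coding signal and 1 to 28 over left-out cultures, with medians of -0.10 centred and 0.78 scaled.

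The time median ran from 0.37 to 0.66 over left-out cultures; single labelling times do not apply to it. The preexisting intronic median was -0.014 from 15 minute libraries, -0.15 centred and -0.23 to 0.35 over left-out cultures, and 3 genes were called with a pseudocount of 0.1. Over left-out cultures, these changed sign: preexisting Rps19bp1 (-0.41 to 0.13) and Rps21 (-0.60 to 0.13), labelled Rps19bp1 (-0.59 to 0.0033), Rpl31 with labelling time (-0.018 to 0.21) and labelled intronic Rpl5 (-0.11 to 0.25). Others that changed sign were those of Rps19bp1 (preexisting 0.28 and labelled 0.33 from 15 minute libraries) and intronic labelled Rpl5 (-0.21 centred, -0.062 from 15 minute libraries). The cause was not tested.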
